A study of Gallus gallus with 6 samples.

Results

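The normal ovary of the domestic hen (Gallus gallus) is described here from the 3 arrays whose disease state label is Normal, out of 6 arrays in the series. The hens are called 36, LB3 and LB22, as their titles give them. Each array carries RNA from the whole ovary of a hen named in its title, with no treatment, breed or age stated, so the spread between arrays is read as a spread between animals. These hens had no gross or microscopic sign of ovarian cancer and were matched in age and laying status to the 3 hens that make up the rest of the series, whose ovarian tumours were confined to the ovary or had also seeded the abdomen. No cell type was isolated. The question is which transcripts a normal hen ovary shows, from which cell types, and how far hens without disease differ from each other.

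The ovary of a laying bird holds follicles of very unequal size, from small ones in the cortex to a few large yolk-filled ones. Around each oocyte lies a layer of granulosa cells, and outside it the theca, which has an inner and an outer layer; together they make progesterone, androgens and oestrogens. The oocyte takes up yolk precursors that the liver secretes into the blood. Connective tissue, smooth muscle, vessels, nerves and leukocytes fill the space between the follicles, and the red blood cells of birds keep a nucleus and RNA. A whole-ovary sample mixes all of these, so fewer cells of a type and less RNA per cell cannot be told apart in any value below.

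The arrays read each transcript as the brightness of a probe set, in linear units that the authors' software had scaled to a common trimmed mean of 500.1 on every array. Of 38439 probe sets that are not controls, 27168 carry a single gene symbol, for 13009 symbols. A background limit was set on each array from 59 control probe sets for foreign transcripts that gave little or no signal, at their 95th percentile. It was 42.0 in hen 36, 38.6 in LB3 and 39.3 in LB22. By this limit 18547 named probe sets (68.3%) were above background in all 3 hens, 1955 in 2 hens, 2057 in 1 hen and 4609 (17.0%) in none. With 1 probe set kept per gene, the brightest, 10448 of 12556 genes (83.2%) were above the limit in all 3 hens, and the median gene had a mean signal of 475. Symbols that start with LOC were left out of these genes.

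Brightness depends on the probes as well as on the transcript. In 2974 genes with a second probe set of mean signal of at least 200, the brighter probe set exceeded the second by a median of 2.10 times, and by 6.63 times at the 90th percentile. The order of genes by signal below is therefore an order of probe sets, and neighbours in it are not ranked as transcripts. Comparisons of the same probe set between hens need no such order, but they too can depend on the probe set. In 99 of these genes the brightest probe set had a range over 2-fold between hens. The second probe set had one in 39 of the 99.

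Most of the brightest probe sets belonged to the machinery of protein synthesis. 13 of the 25 genes with the highest mean signal encode ribosomal proteins, and EIF4A2, EEF1A1 and EIF5 encode translation factors. EIF4A2, an RNA helicase of translation initiation, had signals of 29368 in hen 36, 29965 in LB3 and 31858 in LB22. EEF1A1, which brings aminoacyl-tRNA to the ribosome, had 29096, 27041 and 30197 in the same order of hens. All 3 hens lay close together for both genes. Of the ribosomal protein genes, RPS3A had a mean of 27029 ± 1384 (SD, n = 3), RPS20 26805 ± 374, RPL38 26040 ± 1287 and RPS25 24719 ± 278. Of the listed translation genes, 35 of 35 measured were above background in all 3 hens, against 83.2% of all genes. Their median signal was 17163. Over 2-fold differences between hens were found for 0 of them, against 6.58% of all genes past the filter on dim genes. Bright probe sets exceeded 2-fold less often in general. The share was 3.03% for mean signals above 10000 and 12.8% for those below 300, so the 0 is near the share for such brightness.

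Iron storage, redox and glycolysis genes were also among the 25. FTH1, the heavy chain of ferritin, had 30657, 31027 and 29032 in hens 36, LB3 and LB22. TXN, thioredoxin, had a mean of 27079 ± 667 (SD, n = 3), ENO1, enolase, 28137 ± 1752, and GAPDH 24133 ± 1326. SEC61B, a subunit of the channel that passes proteins into the endoplasmic reticulum, had 24713 ± 1529. EMB, embigin, a membrane glycoprotein of the immunoglobulin superfamily, was among them with 23910, 22750 and 26453.

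Collagens and an apolipoprotein completed the 25, and 2 of these 3 were the most uneven of them. COL1A1, a chain of type I collagen, had 33144 in hen 36, 19171 in LB3 and 26231 in LB22, an SD of 0.40 on the log2 scale. COL3A1, of type III collagen, had 24095, 22430 and 23478, an SD of 0.05. APOA1, the main protein of high-density lipoprotein, had 22662, 28416 and 17325, an SD of 0.36. The median SD over the 25 genes was 0.07. The next gene outside the 25 was PNRC1, with a mean of 22311 against 22430 for RPS27A, the last inside.

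**Figure D1:**
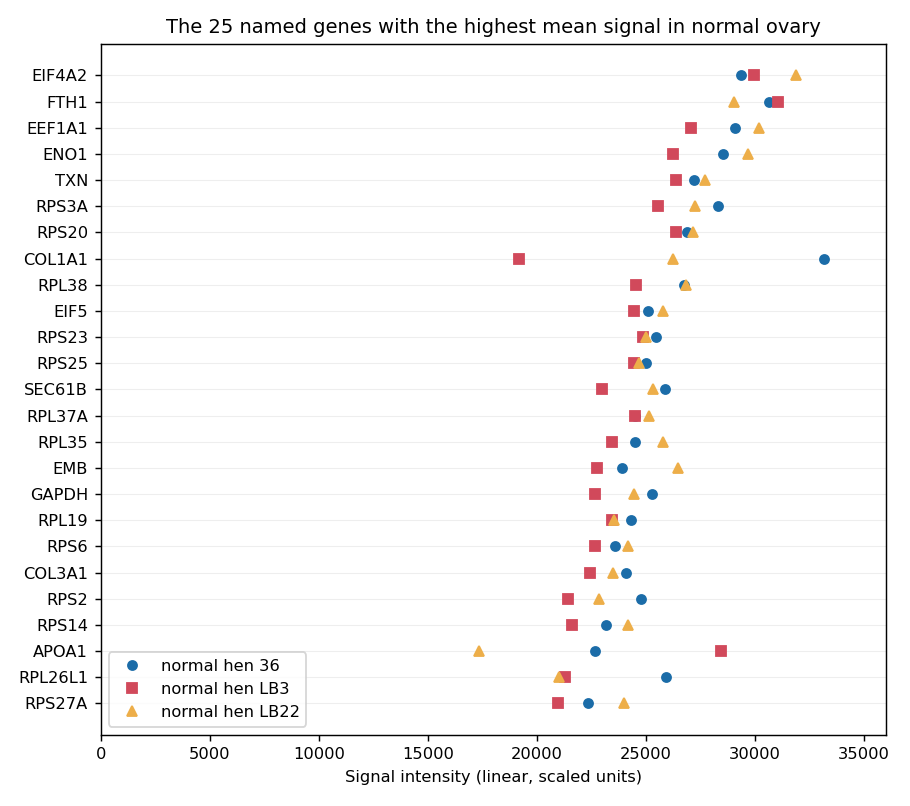
Signal intensity (linear, scaled units, horizontal) of the 25 named genes with the highest mean signal, with 1 point for each of the 3 normal hens. For most genes the 3 points lie close together, while those of COL1A1 (19171 to 33144) and APOA1 (17325 to 28416) are spread out.

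Of the granulosa cell list, 21 of 21 measured members were above background in all 3 hens, against 83.2% of all genes. Their median signal was 1117, against 475 for all genes. AMH, the anti-Mullerian hormone, which granulosa cells of small follicles secrete, had 16132 in hen 36, 14502 in LB3 and 15508 in LB22. FOXL2, a transcription factor of ovarian identity, had 10938, 10929 and 11766, and GJA1, a gap junction protein, 9994, 8033 and 8443. Hens were close to each other in these 3 genes. FSHR, the receptor for follicle-stimulating hormone, also varied little, with 1062, 1022 and 1266 on one probe set and 1062, 892 and 1102 on the other.

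Most other granulosa genes were lowest in hen LB3. ZP3, a protein of the egg coat that granulosa cells make in birds, had 6876 in hen 36, 2293 in LB3 and 5121 in LB22. HSD17B1, an enzyme of oestradiol synthesis, had 6880, 2349 and 6629. INHBB, the gene of an inhibin and activin subunit, had 2178, 390 and 727, a range of 2.44 on the log2 scale, and its second probe set gave 843, 202 and 324. Hen 36 was high and LB3 low on both probe sets of INHBB. INHA, the common inhibin subunit, had 434, 68.7 and 80.6, and UMOD, an egg coat gene also called ZPD, 1097, 584 and 726. INHBA was an exception, highest in LB3 and lowest in LB22 with 158, 240 and 110. PDGFD was also lowest in LB22, with 1118, 936 and 531. Over the list, 7 of 21 members differed by over 2-fold between hens, where 638 of 9697 genes past the filter on dim genes did (6.58%). Of all these genes, 1.67% were over 2-fold and lowest in hen 36, 1.70% in LB3 and 3.21% in LB22, while 5 of the 21 granulosa genes were so in LB3. Counted without a threshold, 16 of the 21 were lowest in LB3, as were 3580 of the 9697 genes (36.9%). UMOD is best known in mammals as a kidney protein, so its symbol here stands for the chicken annotation.

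Genes for the successive steps of steroid synthesis were above background. In the list of theca and other steroid-making cells, 16 of 17 measured genes were above background in all 3 hens, against 83.2% of all genes. GLI1, a target of hedgehog signalling, was in none. CYP19A1, the aromatase that makes oestrogens and lies in the outer theca of birds, had 13178, 11501 and 14094 in hens 36, LB3 and LB22. CYP17A1, which makes androgen precursors, had 9925, 5179 and 8352. CYP11A1, which cuts the side chain of cholesterol, had 4586, 1776 and 4609, and STAR, which brings cholesterol into mitochondria, 3447, 1739 and 2215. HSD3B1, which forms progesterone, had 1835, 648 and 1194, and 1401, 269 and 698 on its second probe set. Hen LB3 was lowest for all of these 5 genes. Over the list it was lowest for 8 of 15 members past the filter, against 36.9% of all genes. It was highest for 5 other members, against 36.6% of all genes, among them NR0B1 with 4337, 6027 and 5673. LHCGR, the receptor for luteinizing hormone, had 1794, 1309 and 1172, with hen LB22 lowest. The list had 2 of 15 members past the filter with a range over 2-fold, against 6.58% of all genes past the filter.

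Oocyte transcripts were present in every hen. Above background in all 3 were 30 of 34 measured members, close to the 83.2% of all genes. VLDLR, the receptor through which chicken oocytes take up yolk lipoproteins, had 13609, 14288 and 14624, an SD of 517 around a mean of 14174. BTG4, known in mammals for clearing maternal messenger RNA, had 6470, 6365 and 5147. The oocyte growth factor gene GDF9 had 4478, 3969 and 3710. ZP2, another coat protein gene, had 6094, 7728 and 6154, and DAZL, an RNA-binding protein of germ cells, 3830, 5312 and 3142. VLDLR and GDF9 differed little between hens, and DAZL was highest in LB3. FIGLA was not matched on the named probe sets. BMP15, another oocyte growth factor, had a mean of 256 ± 49.5 (SD, n = 3), and DDX4, the vasa helicase of germ cells, 170 ± 14.5. The list had 4 of 28 members past the filter with a range over 2-fold, against 6.58% of all genes past the filter. Of the 28, 17 were highest in LB3, as were 3549 of all 9697 genes (36.6%).

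**Figure D2:**
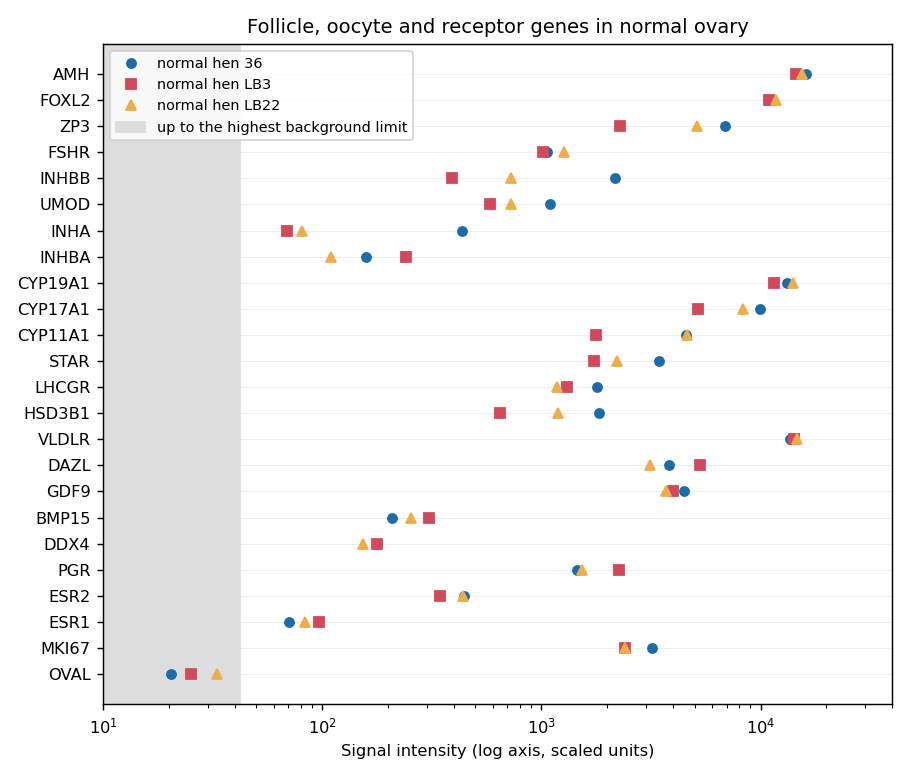
Signal intensity (log axis, scaled units, horizontal) of granulosa, steroid synthesis, oocyte and receptor genes, with 1 point for each of the 3 normal hens; the grey band runs to the highest background limit, 42.0. The red squares of hen LB3 lie to the left for ZP3, INHBB, CYP11A1 and HSD3B1, VLDLR points coincide, and OVAL lies in the band.

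Cell cycle genes were above background in all 3 hens for 26 of 26 measured members, against 83.2% of all genes. Their median signal was 2466. TPX2, a spindle assembly factor, had 12900, 11671 and 11861, and CDK1, the kinase that drives mitosis and meiosis, 11283, 9697 and 10353. MKI67, found in dividing cells, had 3189, 2407 and 2407. TOP2A, a topoisomerase of dividing cells, had 1246, 442 and 1005, and 1037, 310 and 1009 on its second probe set. Hen LB3 was lowest for 21 of the 26 genes, against 36.9% of all genes, and 4 of 26 had a range over 2-fold, against 6.58%. Both oocytes and dividing follicle cells hold such transcripts, and the array does not separate them.

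Stroma gave some of the brightest signals, with a median of 3621. Above background in all 3 hens were 25 of 25 measured fibroblast genes, against 83.2% of all genes. COL1A2, the other chain of type I collagen, had 24973, 13998 and 19956, and SPARC, a matrix protein that binds collagen, 21422, 11384 and 18817. FN1, fibronectin, had 15345, 13901 and 12282, and DCN, the proteoglycan decorin, 10678, 9023 and 8915. VCAN, the proteoglycan versican, had 1163, 467 and 308, and POSTN, periostin, 3463, 6114 and 2144. Hen 36 was highest for 18 of 24 members past the filter, with POSTN among the exceptions, and for 2843 of all 9697 genes (29.3%). The 2 brightest probe sets of COL1A2 (15047, 6783 and 10542 on the second) and of COL5A1 (8633, 3796 and 4848, then 6462, 4301 and 4650) gave the same highest and lowest hens. By brightness, probe sets 3, 4 and 5 of COL1A2 were highest in LB22 instead. They had 1567, 997 and 1789, then 496, 511 and 563, then 430, 363 and 575.

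Smooth muscle genes were above background in all 3 hens for 12 of 14 measured members, close to the 83.2% of all genes. TAGLN, transgelin, had 5224, 2688 and 3928, MYLK, the myosin light chain kinase, 9157, 5413 and 7898, and ACTG2, smooth muscle actin, 2574, 890 and 1883. Hen 36 was highest for 9 of 12 members past the filter, against 29.3% of all genes. The others were DES, desmin (422, 566 and 672), and CSRP1, highest in LB22, and SYNM (964, 981 and 821), highest in LB3. ACTA2, another smooth muscle actin, did not pass the filter, with 153, 21.4 and 73.6, and was below the background limit in LB3. Vessel genes differed less than those of smooth muscle, with a median SD of 0.23 against 0.35, but not less than all genes (0.18). CDH5, the cadherin of endothelial junctions, had 2825, 2532 and 2042. VWF, von Willebrand factor, had 1087, 956 and 1040, and PDGFRB, a receptor of pericytes, 2316, 2247 and 2214. PDGFRB was nearly equal in the hens. Of 20 vessel genes past the filter, 1 had a range over 2-fold, SOX17 with 2405, 5202 and 3180, close to the 6.58% of all genes.

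Epithelial genes were part of the normal ovary. Of the list of surface epithelium and mesothelium, 12 of 14 measured genes were above background in all 3 hens, close to the 83.2% of all genes. The exceptions were MSLN (23.7, 55.3 and 61.8) and CALB2 (41.2, 43.1 and 20.7). EPCAM, an adhesion molecule of epithelia, had 12620, 12487 and 14301, CLDN1, a tight junction protein, 10725, 11733 and 10687, and KRT7, a keratin of simple epithelia, 2730, 3307 and 3914. KRT24, listed also as keratin 19, had a mean of 3839 ± 457 (SD, n = 3). CDH1, E-cadherin, had 122, 209 and 199, lowest in hen 36. KRT5, a keratin of stratified epithelia, had 42.5, 452 and 82.3, so the signal was highest in LB3 and near the limit in hen 36.

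Red cell genes differed between hens by less than 2-fold, though their median SD of 0.31 was above the 0.18 of all genes. HBA1, the alpha-A globin gene, had 16472, 13765 and 17396, and HBAD, the alpha-D globin gene, 5434, 4772 and 6283. TAL1, a transcription factor of blood cell formation, had 317, 360 and 176, and TFRC, the transferrin receptor, 920, 1175 and 630. HBA1 and HBAD were lowest in LB3, while TAL1 and TFRC were highest there. 0 of 11 members past the filter had a range over 2-fold, against 6.58% of all genes. The sums over the whole list were 26521, 23943 and 27655.

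Leukocyte genes were uneven. For B cells and plasma cells, IGLL1, the symbol under which the table holds the immunoglobulin light chain, had 9296 in hen 36, 29324 in LB3 and 21032 in LB22, and the next 5 of its 8 probe sets gave the same order. JCHAIN, which joins immunoglobulins into polymers, had 5221, 21459 and 11997, and IRF4, a transcription factor of plasma cells, 181, 1449 and 453. Hen 36 was lowest and LB3 highest for these 3 genes. POU2AF1, a B cell coactivator, had 48.4, 218 and 73.8, and CD79B, a part of the B cell receptor, 84.9, 216 and 59.2. XBP1, which plasma cells and other secretory cells share, had 6145, 6643 and 5729. Of 18 measured members, 14 were above background in all 3 hens, against 83.2% of all genes. Past the filter, 11 of 12 members were highest in LB3, against 36.6% of all genes. The exception was EBF1, a B cell transcription factor, with 684, 516 and 353. Some of the 11 led by little: TNFRSF13B had 109 in both hens 36 and LB3. XBP1, SH2D6 and CR2 had ranges of 1.16-, 1.24- and 1.18-fold. A range over 2-fold was found for 5 of 12, against 6.58%. The list sums were 25602, 65001 and 43669.

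Most macrophage genes followed a different order, with LB22 lowest. CD74, the invariant chain of class II antigen presentation, had 22651, 23628 and 18355. CSF1R, the growth factor receptor of macrophages, had 3430, 3435 and 2303, and CTSS, cathepsin S, 3158, 8882 and 2762. SPI1, a transcription factor of myeloid cells, had 1294, 2652 and 705, and 577, 1276 and 342 on its second probe set. LY86, a partner of a Toll-like receptor relative, had 1543, 3471 and 857, C1QB, of complement, 2132, 2124 and 996, and CYBB, of the oxidase that makes superoxide, 170, 668 and 138. Hen LB22 was lowest for 20 of 24 members past the filter, against 2974 of all 9697 genes (30.7%), and LB3 highest for 18, against 36.6%. The exceptions in LB22 were TLR7, GPNMB and MRC1 (137, 149 and 151), lowest in hen 36, and STAB1 (168, 126 and 130), lowest in LB3. C1QB, MARCO, CCL4, TLR2A and STAB1 were highest in hen 36, and MRC1 in LB22. A range over 2-fold was found for 12 of 24 members (50.0%), against 6.58% of all genes past the filter. The list sums were 45012, 60101 and 33935.

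T cell genes were dimmer. Hen LB22 was lowest for 8 of their 12 members past the filter, against 30.7% of all genes. CD3E, a chain of the T cell receptor complex, had 645, 894 and 329, and CD3D 505, 711 and 378. CD8A had 247, 259 and 242, so it was even. IL7R, with 674, 785 and 929, went the other way and was highest in LB22. GZMA and CD4, like IL7R, were lowest in hen 36, and CD8BP was lowest in LB3. Of 20 measured members, 14 were above background in all 3 hens, against 83.2% of all genes, and RAG1, LCK and CTLA4 were in none. In the granulocyte list, MMP9, gelatinase B, had 7813, 9127 and 1322, and EXFABP, a lipid-binding protein of inflammation in birds, 356, 2183 and 287; the granulocyte defensin AvBD1 had 299, 426 and 365. These 3 were highest in LB3, whereas the other 4 of the 7 members past the filter were highest in hen 36. They are CTSG, cathepsin G, with 236, 228 and 106, the defensin AvBD7 with 190, 52.1 and 47.2, DEFB4A with 174, 58.5 and 150, and LYZ, lysozyme, with 121, 119 and 109. 9 of 15 measured members of the granulocyte list were above background in all 3 hens, against 83.2% of all genes. The sums of this list, 9611, 12592 and 2608, consist mostly of MMP9. How far leukocytes or blood in the sample took part in other differences between hens was not tested.

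Markers of other organs had low median signals, 61.2 for the oviduct list, 57.4 for liver, 139 for adrenal gland, 74.0 for motile cilia and 45.7 for skeletal muscle, against 475 for all genes. Of the oviduct gland genes, OVAL, ovalbumin, was below the limit in all 3 hens (20.4, 25.2 and 33.0), as were OVOB and AvBD11. In this list 9 of 16 measured genes were above it in all 3, against 83.2% of all genes. AVD, avidin, had 208, 694 and 50.8. TF, ovotransferrin, had 6039, 5219 and 5476 on its brightest probe set, 973, 1078 and 387 on the next and 27.5, 30.5 and 28.1 on the dimmest, so its level in normal ovary depends on the probe set. TFPI2, an inhibitor of proteases, was bright at 12870, 14272 and 10528. In the liver list 12 of 28 measured genes were above background in all 3 hens. APOA1 and HPX, which binds haem (6175, 9241 and 6096), were bright, while ALB, serum albumin, had a mean of 91.5 ± 11.3 (SD, n = 3), and AHSG, F2 and AMBP were below the limit in all 3.

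For the adrenal gland, which lies next to the ovary in birds, 7 of 12 measured genes were above background in all 3 hens. The share over all genes was 83.2%. Its steroid enzyme gene CYP21A1 had 104, 108 and 176, the catecholamine enzyme gene TH 326, 24.7 and 95.2, and PENK, proenkephalin, 237, 1189 and 269. In the list of motile cilia 10 of 18 genes were above background in all 3 hens, led by CCDC40 (772, 886 and 1126). In skeletal muscle 8 of 17 were, led by ACTA1 (1038, 464 and 963), and 7 were in none, among them TNNI2 and MYLPF. In the list of nerve and Schwann cells 12 of 17 measured genes were above background in all 3 hens. UCHL1, an enzyme of neurons, had 15748, 15039 and 14894. The list members NEFL, PMP22 and NEFM had means of 2717 ± 117 (SD, n = 3), 2260 ± 277 and 2250 ± 509, and MBP 938 ± 212. SOX10, which marks the glia of nerves, had a mean of 301 ± 37.9. SYT1 and GAP43 were below the limit in all 3. UCHL1 is also known from oocytes in mammals, so its signal does not stand for nerves alone.

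Among hormone receptors, 15 of 20 measured genes were above background in all 3 hens, against 83.2% of all genes. PGR, the progesterone receptor, had 1457, 2259 and 1528, ESR2, an oestrogen receptor, 444, 346 and 441, and ESR1, the other one, 70.6, 96.4 and 83.4. IGF1R, the receptor for insulin-like growth factor, had 2262, 1965 and 1795. Of the heat-shock genes, HSP90AA1 had 14140, 14746 and 15294, HSPA8 15553, 14040 and 14534 and HSPH1 235, 332 and 312. SOCS3, a feedback inhibitor of cytokine signals, had 231, 766 and 169 and NR4A2, an immediate early nuclear receptor, 287, 975 and 283. Both were highest in LB3. They were the only 2 of 20 immediate early and stress genes past the filter with a range over 2-fold, against 6.58% of all genes. The median SD of this list was 0.13, against 0.18 for all genes, and 11 of the 20 were highest in LB3, against 36.6%. B2M, of class I antigen presentation, had 16633, 18758 and 16730, and the interferon list was highest in LB3 for 13 of 16 members past the filter, against 36.6% of all genes.

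The spread between hens was small for most genes. It was measured on log2(signal + 16), where 16 damps the noise of dim values, over 16301 named probe sets whose mean signal over the 3 hens reached the 40th percentile, 89.8. The median SD was 0.20. 118 probe sets (0.724%) had a range over 4-fold, 32 of them (0.196%) highest in hen 36, 75 (0.460%) in LB3 and 11 (0.0675%) in LB22, and 1210 (7.42%) over 2-fold. The spread narrowed with brightness, from a median SD of 0.268 for mean signals below 300 to 0.205 from 300 to 1000, 0.163 from 1000 to 3000, 0.125 from 3000 to 10000 and 0.089 above 10000. As a yardstick, 27 probe sets for bacterial and phage control transcripts, which are normally added in fixed amounts before hybridisation, had a median SD of 0.082 (0.015 to 0.177). In the range from 300 to 1000 the controls had a median SD of 0.095. They do not pass through tissue sampling, extraction or most of the labelling, and with 1 array per hen no difference between hens could be tested against an error within hens.

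Hen LB3 stood somewhat apart from the other 2. Hens 36 and LB22 differed over 2-fold at 403 of the 16301 probe sets (2.47%), hens 36 and LB3 at 589 (3.61%) and hens LB3 and LB22 at 762 (4.67%). Pearson correlations across probe sets, which are not independent, were 0.973, 0.967 and 0.962 in this order. At the level of genes, 189 (1.95%) had a range over 2-fold and were highest in hen 36, 360 (3.71%) in LB3 and 89 (0.918%) in LB22. Among the 1210 probe sets with a range over 2-fold, 668 (4.10% of those past the filter) were highest in LB3, 337 (2.07%) in hen 36 and 205 (1.26%) in LB22. The controls added before hybridisation deviated by −0.08 (log2) from the mean of the hens in LB3, 0.06 in hen 36 and 0.015 in LB22. The log2 ratio of 3' to 5' signal of the actin and GAPDH controls, a sign of RNA integrity, was 0.15 in hen 36, 0.20 in LB3 and −0.01 in LB22. Their part in the differences between hens was not tested.

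Gene lists differed in which hen they were highest in, given here as the mean deviation of the members past the filter from the mean of the hens, on the log2 scale. The mean over all 9697 genes past the filter lay within 0.02 of 0 in each hen. Among lists with at least 10 members past the filter, stroma (0.30), granulosa cells (0.28) and smooth muscle (0.26) had the highest values in hen 36. The median granulosa gene deviated there by 0.07, so the mean was carried by a part of the members. In LB3, B cells and plasma cells (0.56) and macrophages (0.50) were highest while cell cycle (−0.29), smooth muscle (−0.27) and granulosa cells (−0.26, median −0.12) were lowest. In LB22, macrophages (−0.47), liver (−0.32) and T cells (−0.31) were lowest. Of the smaller lists, granulocytes, with 7 members, had −0.55 in LB22 and the oviduct list, with 4 members and AVD among them, −0.49. The translation list was lower in LB3 by −0.07 and the mitochondrial list by −0.11, sizes close to the deviation of the added controls there. The means of vessels (−0.01 to 0.03) and red cells (−0.09 to 0.05) lay near 0, with members going both ways: 6 of 11 red cell genes were highest and 5 lowest in LB3. Their median SDs were 0.23 and 0.31, against 0.18 for all genes.

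**Figure D3:**
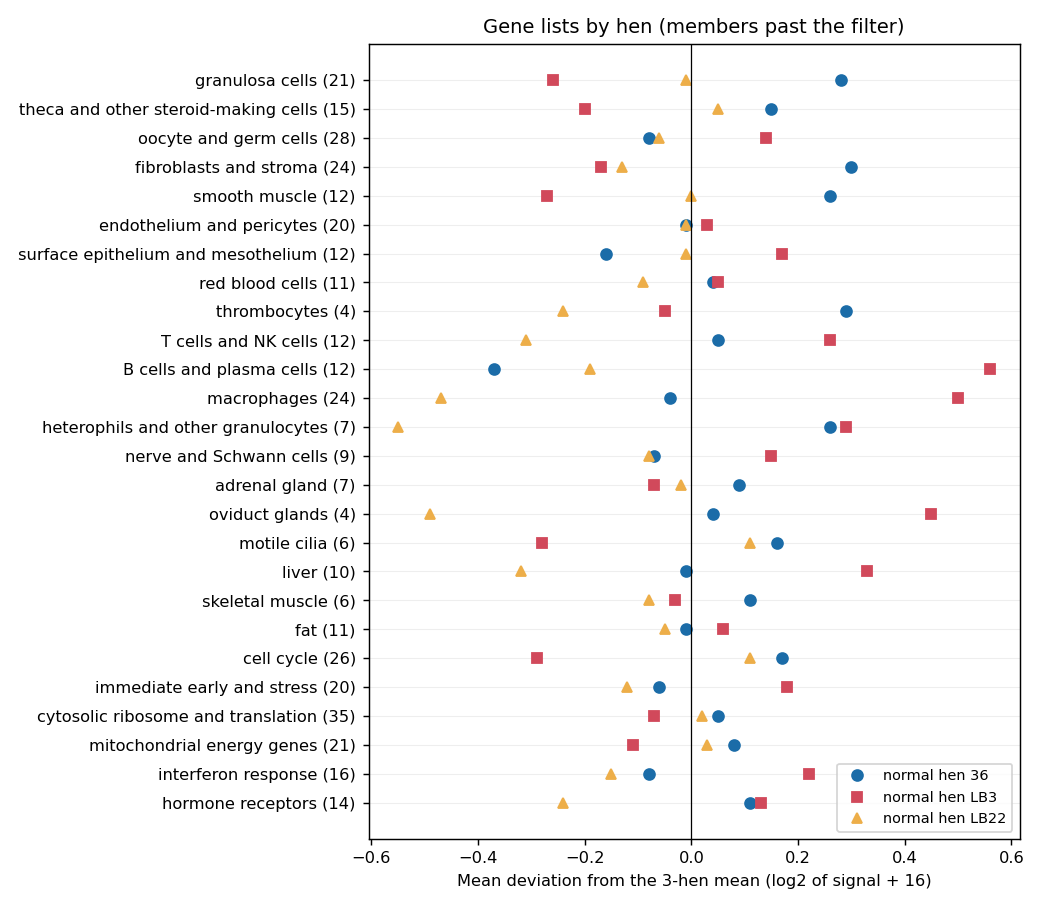
Mean deviation of each gene list from the mean of the 3 normal hens (log2 of signal + 16, horizontal); 1 point per hen, the number of members past the filter in brackets. Macrophage and T cell lists spread from hen LB22 on the left to LB3 on the right. The granulocyte list has LB22 on the left, with hen 36 (0.26) and LB3 (0.29) close together on the right. Granulosa, smooth muscle and cell cycle lists have LB3 on the left, and translation and vessel lists lie near 0.

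Over 4-fold ranges were found for 64 of 9697 genes (0.660%). Of the 24 genes with the largest SD among 8116 genes with a mean signal of at least 200, 17 were highest in LB3, 4 in hen 36 and 3 in LB22, and 12 were lowest in LB22. Of all 9697 genes past the filter, 36.6% were highest in LB3 and 30.7% lowest in LB22. Among the 638 of them with a range over 2-fold, 360 were highest in LB3 and 311 lowest in LB22. AvBD9, a beta-defensin, had 86.0, 2478 and 612 in hens 36, LB3 and LB22. PLAU, urokinase, had 672, 5255 and 424, and the collagenase MMP13 1247, 752 and 56.1. MMP13 and MMP9 shared a low value in LB22, and AvBD9 and PLAU a high one in LB3. The other probe sets of PLAU were not highest in LB3, with 78.3, 59.6 and 30.7, then 7.86, 12.2 and 59.6. Both were dim, with means of 56.2 and 26.5. CDKN2B, an inhibitor of the cell cycle, had 725, 1222 and 154, and GSTA3, a glutathione transferase, 615, 2248 and 420.

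ACTC1, cardiac actin, had 112, 653 and 130, and MYL3, a myosin light chain, 479, 117 and 722, so they had different hens at the top. SCG2, secretogranin II of neuroendocrine granules, had 183, 891 and 149, like PENK, given above. PMEL, a protein of pigment granules, had 61.4, 850 and 184. CYP2AB1, a cytochrome P450, had 641, 22.4 and 157, and SULT1C3, a sulfotransferase, 281, 321 and 16.5. The smallest SD among the 24 was 1.24, for GUCY1A2, a subunit of soluble guanylate cyclase (1391, 978 and 258). The next gene outside was NCF1C, also at 1.24. Since these 24 were chosen for their SD, the SD itself is a description.

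**Figure D4:**
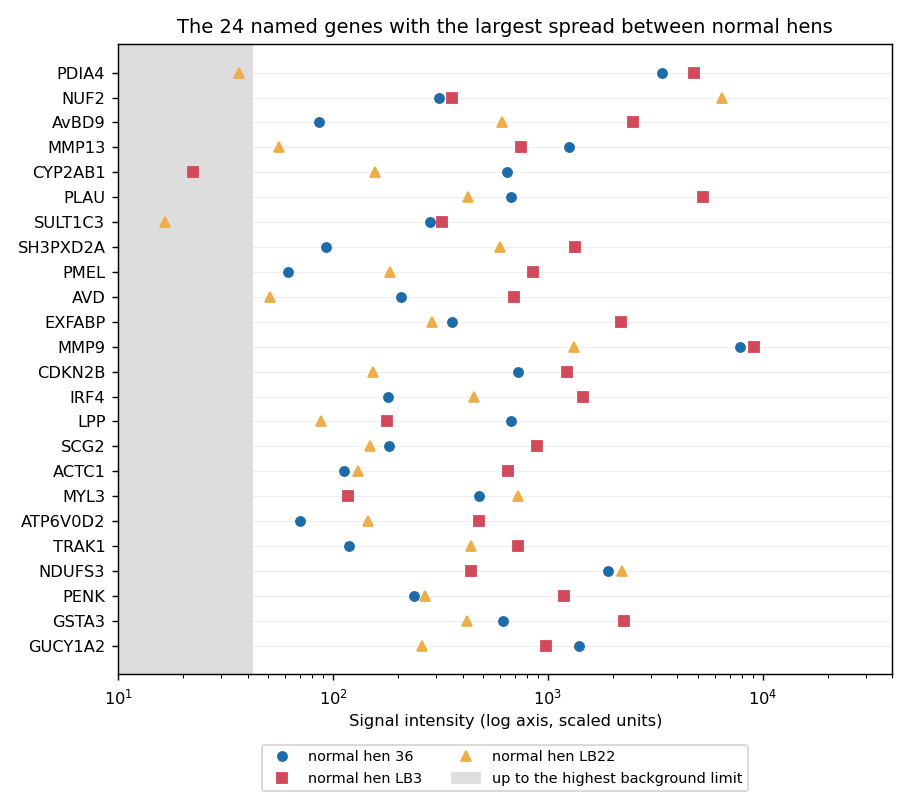
Signal intensity (log axis, scaled units, horizontal) of the 24 named genes with the largest spread between normal hens, with 1 point per hen; the grey band runs to the highest background limit, 42.0. For 17 of the 24 genes the red square of hen LB3 is the highest point, against 36.6% of all genes past the filter. Single points of PDIA4, CYP2AB1 and SULT1C3 lie in the band.

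Second probe sets of the same genes showed some of these differences and not others. PDIA4, a disulfide isomerase of the endoplasmic reticulum, had the largest spread of all, with 3379 in hen 36, 4792 in LB3 and 36.6 in LB22. Its other probe set had 1634, 1592 and 1573. NUF2, a kinetochore protein, had 310, 358 and 6418 on one probe set and 2075, 1654 and 1645 on the next. SH3PXD2A, an adaptor of podosomes, had 92.8, 1335 and 598, then 640, 614 and 534. For these genes the gap was seen with 1 probe set and not with the next brightest. Of the 24 genes, 13 had a single probe set and 8 a second one past the filter. In 4 of these 8 the same hen was highest, and in 1, the proton pump subunit ATP6V0D2 (70.4, 478 and 146, then 31.8, 245 and 101), the second probe set also had a range over 2-fold.

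Over all 2974 genes with 2 probe sets of mean signal of at least 200, the same hen was highest on both in 52.7%. Among the 99 of them whose brightest probe set had a range over 2-fold, this share was 71.7%, the second probe set had a range over 2-fold in 39, and it stayed within 1.3-fold in 19. In 30 genes both probe sets had a range over 2-fold with the same highest and the same lowest hen. The genes named from these 30 were chosen after their values were seen.

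Of these 30 genes, hen 36 was highest in 15, LB3 in 13 and LB22 in 2, and LB3 was lowest in 14. Of all 638 genes past the filter with a range over 2-fold, 189 were highest in hen 36, 360 in LB3 and 89 in LB22. LB3 was lowest in 165 of the 638. High in hen 36 and low in LB3 were INHBB, HSD3B1 and TOP2A, described above, and FAM83D, a spindle protein, with 1216, 468 and 913, then 331, 111 and 198. COL4A2, of basement membranes, had 8218, 3675 and 5487, then 2882, 1149 and 2380, and SMAD7, an inhibitor of TGF-beta signals, 1265, 497 and 760, then 859, 355 and 628. High in LB3 and low in LB22 were SPI1 and POSTN, and CHIR-IG1-5, a chicken immunoglobulin-like receptor, with 1119, 1527 and 310, then 717, 1022 and 216. TNFSF10, a death ligand, had 2005, 3767 and 1447, then 1032, 1936 and 843. LIPA, the lysosomal lipase, was highest in LB3 and lowest in hen 36, with 2242, 6150 and 2752, then 1277, 3289 and 1537.

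**Figure D5:**
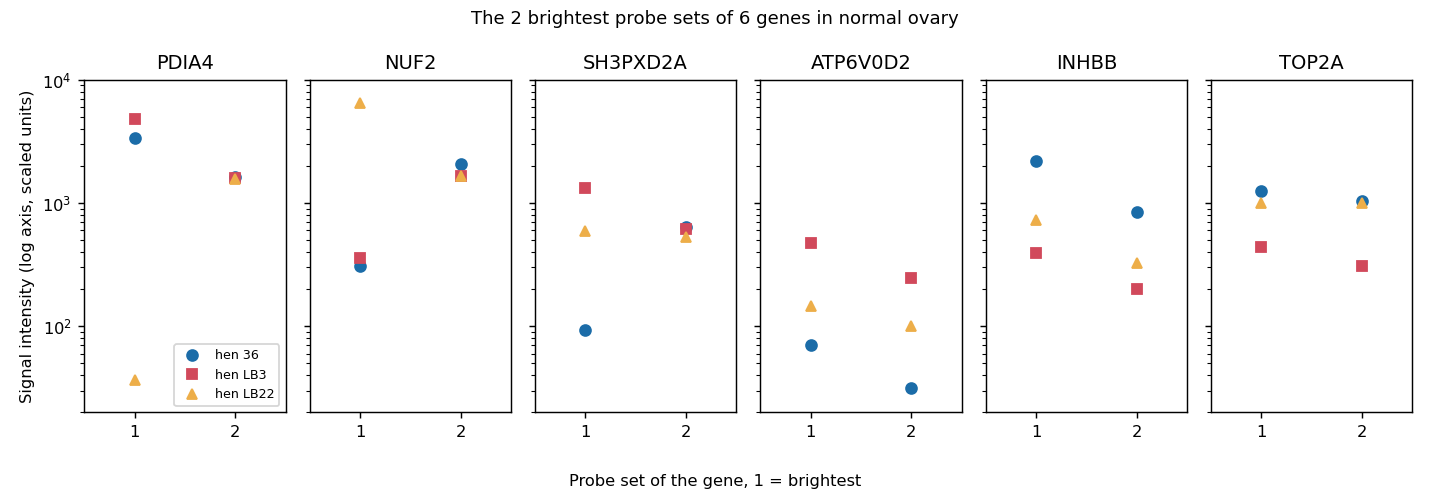
Signal intensity (log axis, scaled units, vertical) on the 2 brightest probe sets of 6 genes, with 1 point for each of the 3 normal hens. PDIA4, NUF2 and SH3PXD2A spread on the first probe set and not on the second, while ATP6V0D2, INHBB and TOP2A keep the order of hens on both.

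At the other end, 10 genes had SDs of at most 0.0056. TEF, a clock-related transcription factor, had 230, 229 and 229, PDCD5 4949, 4931 and 4950, and EIF4H, a helper of translation initiation, 6247, 6252 and 6221. Values closer than those of the added controls (lowest SD 0.015) were picked as the smallest SDs among 8116 genes. They are therefore no evidence of special constancy, which was not tested.

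Against the 3 tumour arrays, 3 summary values of the normal arrays were compared. The 100 brightest named probe sets held 8.94% ± 0.0982 of the summed signal in normal ovaries and 9.57% ± 1.63 in tumours (SD over 3 hens each), with p = 0.400 by an exact permutation test, two-sided, and 0.600 after adjustment over 3 tests. The number of named probe sets above the limit was 20536 ± 540 in normal ovaries and 21249 ± 867 in tumours (p = 0.300 by the same exact test, adjusted 0.600). The 3' to 5' ratio was 0.114 ± 0.106 and 0.142 ± 0.0688 on the log2 scale (p = 0.800 by the same exact test, adjusted 0.800). With 3 against 3 arrays the smallest p this test can give is 0.1, so it cannot decide whether the groups differ or are alike.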

How the data were processed

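RNA was extracted with TRIZOL and biotin-labelled with an Ambion kit, per the labels' protocols, and each Affymetrix array holds 1 ovary. The authors deposited 38535 probe set intensity values per array on a linear scale. The submitters' processing notes name GCOS as the software, without version or settings. Trimming 2% at each end gave a mean of 500.1 on every array, so the deposited values were used as scaled, and a change in total messenger RNA cannot be seen.

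Symbols are those of the platform annotation, replaced by the current RefSeq symbol (assembly GRCg7b, names only) where the gene ID matched, for 26853 of 27168 named probe sets. 177 probe sets with several symbols, 11094 with none and 96 controls were left out. Values were analysed as log2(signal + 16) in Python 3.11.15 with pandas 2.3.3 and scipy 1.17.1; figures used matplotlib 3.10.9. The filter kept probe sets at or above the 40th percentile of the mean over the 3 normal hens. A gene is represented by its brightest probe set. Named genes are the 25 brightest, the 24 most and 10 least variable with mean signal of at least 200, up to 4 bright and 2 variable members of each of 26 lists, and follicle genes; every other gene named was chosen after its values were seen. The lists and the rule were chosen with earlier results of these data known. List members were matched by symbol, or, for 19 names, by a synonym checked by hand. The range step was tested on simulated arrays. The number of arrays limits the precision. The groups share no replicate numbers.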

Additional observations from a re-analysis of the deposited data

How the results depend on the processing

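The median SD of 0.199 became 0.177 with a pseudocount of 64, 0.252 without the filter and 0.174 with a filter at the 60th percentile, and lay between 0.141 (without LB3) and 0.177 (without hen 36) when 1 hen was left out. The 118 probe sets with a range over 4-fold became 56 with a pseudocount of 64, 305 without the filter, 53 with the stricter filter, and 68 without hen 36, 35 without LB3 and 64 without LB22, where a range over 2 hens is smaller by construction. Further choices were added after seeing the data: a range over 2-fold gave 1210, and raising dim signals to the background limit gave 111. Quantile normalization, scaling to the 75th percentile and a pseudocount of 1 stayed within 1.5 times. The 18547 probe sets above the limit became 16464 with a limit at the 99th percentile and 19562 at the 90th. The difference in 3' to 5' ratio, −0.0287, turned to 0.0436 with GAPDH alone, and leaving out 1 array gave −0.0710 to 0.0309; the cause was not tested. The difference in signal share, −0.630, lay between −1.56 and −0.0411, and that in probe sets above the limit, −713, between −1058 and −226, when 1 array was left out. Of the 24 most variable genes, 22 or 23 stayed under other pseudocounts, quantile normalization or raised dim signals. Of 26 lists, 21 kept the same highest hen when all probe sets of a gene were averaged and under quantile normalization; vessels, red cells, granulocytes, mitochondrial genes and hormone receptors did not. Signals near the background limit carry little information on order between hens. No paired analysis was possible because the groups share no replicate numbers.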

Other observations

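In the tumour arrays 4, LB14 and LB11, the probe set of NUF2 that was high in normal hen LB22 alone had signals of 4924, 377 and 9526, and its next probe set 1810, 1117 and 2294. The first therefore took either a low or a high value in each of the 6 birds, in both groups. The probe set of PDIA4 that was below background in normal hen LB22 had 4027, 2615 and 4415 in the tumours, and its other probe set 1561, 1900 and 1335. These values carry no test and their cause was not tested.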
